A study of Papio hamadryas with 12 samples.

Results

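The genes described here are 100 nuclear genes of baboon blood cells, compared between chow and a high-cholesterol, high-fat (HCHF) diet. Each of 6 baboons gave a sample on both diets. The 100 were the genes whose smallest change over the 6 baboons stood highest, which does not measure how even a rise was. They were chosen by 1 number per gene. The level was taken as CPM (the count of a gene scaled to a common library total, here the total without the 2 most abundant genes), the diet ratio as the log2 of HCHF CPM plus 1 over chow CPM plus 1, and genes were ordered by the lowest of their 6 ratios. The choice took 100 of 9391 genes that were off the mitochondrial chromosome and had a mean of at least 5 CPM, out of 27533 genes in the count table. Since the diet ratios chose these genes, the ratios are given below as a description, and a rise on the diet is not tested for them. The 6 ratios were all above 0 in 77 of the 100 genes, which were also all the genes of which this was true (0.82% of the 9391), so that the last 23 of the 100 were not up-regulated in every baboon.

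Adult half-sib baboons (Papio hamadryas), 3 with low and 3 with high plasma low-density lipoprotein cholesterol (LDL-C), were kept on chow with 4% of calories as fat and 0.03 mg cholesterol per kcal, and then for 7 weeks on the HCHF diet with 40% and 1.7 mg per kcal. Blood was drawn on chow and at the end of the HCHF diet, which gave 12 libraries in 4 groups of 3 (low LDL-C on chow, low LDL-C on HCHF, high LDL-C on chow, high LDL-C on HCHF). Baboons 1 to 3 are the low and baboons 4 to 6 the high LDL-C animals, numbered in no order, and neither the labels nor the methods used here give an age, a litter or a group that stayed on chow, so that diet and sampling time cannot be told apart. The 3 animals of a phenotype are few, and the labels do not say which low and which high LDL-C baboon are half-sibs of each other.

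The RNA came from the buffy coat, the thin layer of white cells and platelets that settles between plasma and red cells when blood is spun. The labels call these cells white blood cells and the study peripheral blood mononuclear cells. Circulating monocytes take up modified LDL, enter the artery wall and become the lipid-filled macrophages of early lesions. Cells balance their cholesterol by 2 opposed programmes, in which sterol shortage switches on synthesis and the LDL receptor, and sterol excess switches on genes of cholesterol export. Genes are identified in the count table by Ensembl ID and position on the PapAnu2 assembly, with no symbols, so that neither these pathways nor the markers of white cells, platelets and red cells could be read among the 100 genes, and the labelled tissue was not checked against its markers. In such mixed RNA a change in the share of a cell type and a change in RNA per cell cannot be told apart. Only the 2 highest ranked genes are given by ID, and the others by rank (1 is the highest lowest ratio) and position.

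The libraries were uneven. Total counts ranged from 3434663 to 8518159, and the 2 most abundant genes took from 43.5 to 63.9% of them in 9 libraries. The exceptions were baboon 2 on chow with 89.3%, baboon 1 on chow with 16.8% and baboon 6 on HCHF with 16.3%. Outside these 2 genes 915109 (baboon 2 on chow) to 3872812 counts (baboon 1 on chow) remained, so that 1 count was worth 0.258 to 1.09 CPM.

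Most of the rises were small. The lowest of the 6 ratios had a median of 0.035 over the 100 genes and a maximum of 0.64, and it reached 0.1 in 26 genes, 0.25 in 8 and 0.5 in 2. The mean of the 6 ratios ran from 0.17 to 1.38 with a median of 0.42, which is a mean fold of 1.13 to 2.61 with a median of 1.34. It reached 1 in 12 genes, but 8 of these were counted almost only in the HCHF library of baboon 6, and over the other 92 genes the mean ratio had a median of 0.38 and a highest value of 1.28 and reached 1 in 4 (ranks 1, 2, 17 and 19). Of these 4, rank 19 had only 159 counts over all libraries. Its largest ratio (3.63, in baboon 5) rests on 1 count on chow and 36 on HCHF. The SD of the 6 ratios of a gene had a median of 0.34, close in size to the median rise. At the edge of the choice, ranks 98 to 100 had lowest ratios of -0.0271, -0.0274 and -0.0304, and the next 3 genes had -0.0314, -0.0344 and -0.0366. In 0 of the 100 genes, and in 0 of all 9391 (0.0%), did every HCHF library lie above every chow library. The ranges on the 2 diets thus overlapped in each of the 100. In 4 of the 9391 every HCHF library lay below every chow library.

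The depth behind these ratios was modest. Over the 12 libraries a gene of the 100 had 150 to 27000 counts (median 872.5), and its mean level ran from 5.62 to 989 CPM (median 32.8), values that are not scaled for gene length. For each of the 600 gene and baboon pairs an exact 95% interval was placed on the ratio of HCHF to chow CPM, which covers counting error only. The interval lay above 1 in 204 pairs and below 1 in 0, and the choice largely fixes the latter. The 204 include the baboon 6 pair of each of the 8 genes counted almost only in its HCHF library. The interval lay above 1 in all 6 baboons for 2 genes (ranks 1 and 11), in at least 3 baboons for 33 genes, and in none or 1 for 41.

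**Figure D1:**
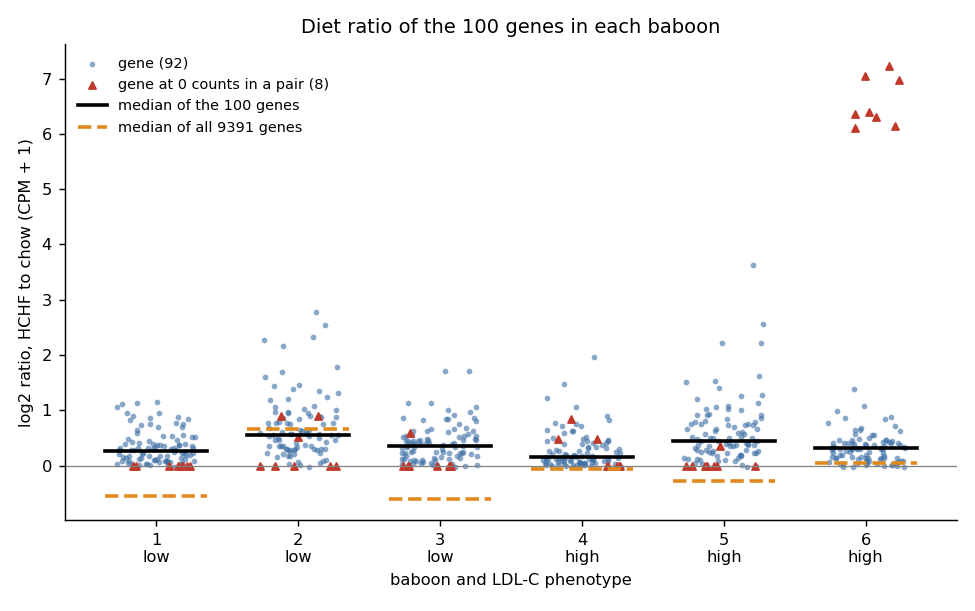
Log2 ratio of HCHF to chow CPM (each plus 1) of the 100 genes in each baboon; every point is a gene, the black bar is the median of the 100 and the dashed bar that of all 9391 genes. The 100 genes sit just above 0 in each baboon while the median of all genes moves from -0.60 in baboon 3 to 0.66 in baboon 2, and the 8 triangles near the top of baboon 6 are genes with 0 counts in both libraries of at least 1 other baboon.

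The leading gene was ENSPANG00000005008 (chr13:106915873-106922408). Its level on chow had a lowest value of 113.6, a median of 233 and a highest value of 335.7 CPM, against 178.1, 541.2 and 1106.7 CPM on the HCHF diet. In baboons 1 to 6 it went from 208.4 to 462.1, from 331.1 to 620.3, from 335.7 to 1106.7, from 131.0 to 366.1, from 257.7 to 792.6 and from 113.6 to 178.1 CPM. The ranges on the 2 diets overlapped, but the gene rose within each animal, by 1.25 on the log2 scale on average (SD 0.43, n = 6) and least in baboon 6 (0.64, a fold of 1.57 with a 95% counting interval of 1.34 to 1.84). Both of its transcripts rose in each of the 6 animals, with lowest log2 ratios of 0.78 for ENSPANT00000006260, which held 75.8% of the counts of the gene, and 0.085 for ENSPANT00000011010.

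The second gene was ENSPANG00000019527 (chr1:171491082-171496039). Its CPM in baboons 1 to 6 was 29.2, 38.2, 53.2, 14.9, 14.5 and 26.3 on chow and 42.0, 102.0, 117.7, 21.8, 71.0 and 45.6 on the HCHF diet. Its log2 ratio was 0.51 to 2.21 (mean 1.09, SD 0.65, n = 6), with baboons 1 and 4 low and baboon 5 high. A single transcript held 97.9% of its counts and was higher in all 6 baboons, and the other, at a mean of 1.07 CPM, was higher in 4. The gene of rank 17 (chr1:171723964-171731461) lies 227925 bases further along chromosome 1 and had the highest mean log2 ratio of the first 25 genes (1.28, SD 0.86, n = 6). It stood at 159.5, 601.0, 466.7, 105.8, 130.4 and 46.6 CPM on chow and at 308.4, 1378.5, 852.5, 413.3, 772.5 and 51.2 CPM on the HCHF diet in baboons 1 to 6. Baboon 6 hardly changed in this gene (log2 ratio 0.13), and the other 5 were 0.87 to 2.56 higher. The 1 other gene of the 9391 between the 2 was higher in 4 of 6 baboons, with a mean log2 ratio of 0.29.

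Rank 5 (chr7:144101777-144102791) had a gene span of 1015 bases and a mean log2 ratio of 0.93 (SD 0.46, n = 6). Its CPM was 16.01, 49.2, 67.4, 24.5, 20.3 and 15.1 on chow and 27.2, 83.9, 221.8, 52.0, 41.7 and 19.1 on the HCHF diet, highest on both in baboon 3. Rank 11 (chr7:81344891-81349220) was among the most deeply counted of the 100. Its CPM was 284.8, 690.6, 1079.8, 626.4, 1174.2 and 317.1 on chow and 391.3, 1197.4, 1217.8, 971.4, 2860.8 and 472.7 on the HCHF diet. Its smallest rise, in baboon 3, was 1.13-fold with a counting interval of 1.056 to 1.205, while the gene of rank 5 rose 1.26-fold in baboon 6 with an interval of 0.80 to 2.04. The counting interval was thus narrower in the deeper gene than in the shallower one. These ratios chose the genes, so neither interval is a test of a rise.

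**Figure D2:**
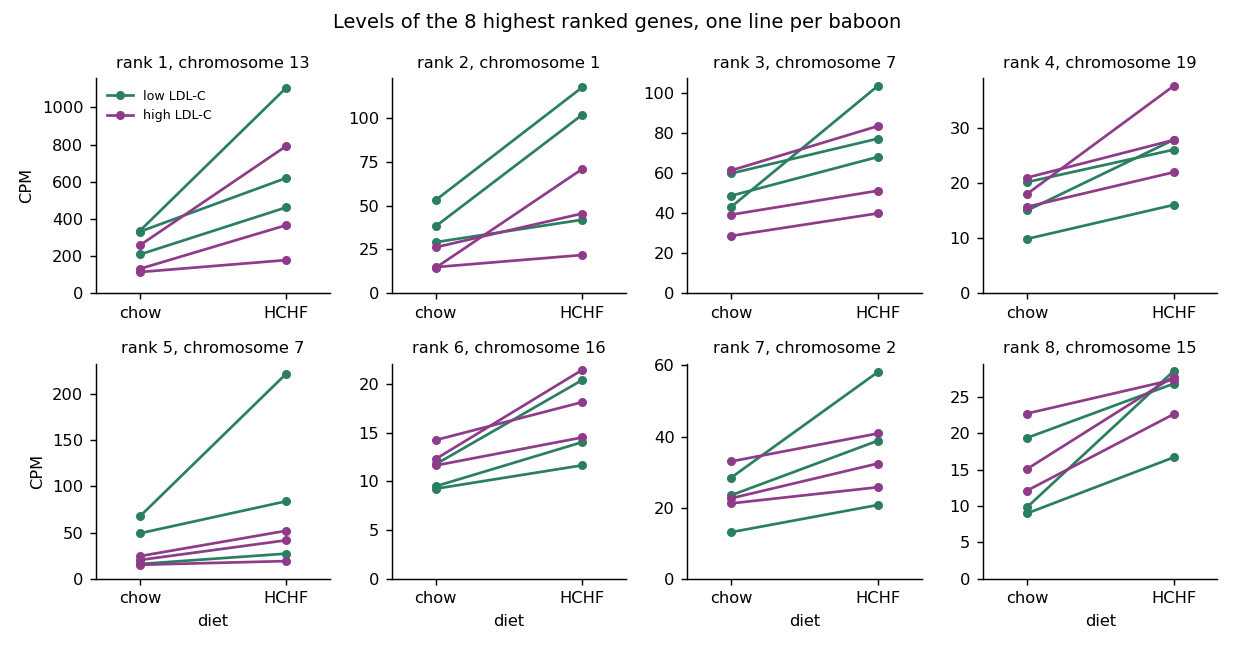
CPM on chow and on the HCHF diet of the 8 highest ranked genes, with 1 line per baboon, green for low and purple for high LDL-C. Every line goes up because the genes were chosen for it, and in each panel the chow and HCHF points overlap (rank 1: 113.6 to 335.7 CPM on chow and 178.1 to 1106.7 CPM on HCHF).

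Among the other genes of the first 25, ranks 19 and 22 had the highest mean log2 ratios (1.19 and 0.96). Both were at low mean levels (6.48 and 7.49 CPM). Rank 3 (chr7:29412225-29427956), rank 4 (chr19:5442034-5444912) and rank 6 (chr16:45472194-45478296) had mean log2 ratios of 0.56, 0.62 and 0.49, with an interval above 1 in 3, 2 and 2 baboons. Rank 7 (chr2:10796661-10796937) spans only 277 bases and averaged 0.57. Rank 8 (chr15:54597503-54707328), rank 9 (chr16:73088964-73092755) and rank 10 (chr14:84700032-84714816) averaged 0.78, 0.75 and 0.36. Rank 10 had one of the most even responses, with an SD of 0.12 over the 6 baboons. Over the first 25 genes the mean log2 ratio ran from 0.30 to 1.28, and 11 of them had an interval above 1 in at least 3 baboons. The 2 genes with the highest mean level of the 100, rank 88 on chromosome 8 (989 CPM) and rank 48 on chromosome 14 (986 CPM), had mean log2 ratios of 0.35 and 0.31, and rank 88 was marginally lower on the HCHF diet in baboon 4 (0.991-fold, interval 0.944 to 1.041).

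Of the 23 genes that were not higher in every baboon, 15 were slightly lower in at least 1, with lowest ratios of -0.030 to -0.0061 and mean ratios of 0.17 to 0.48. The other 8 (ranks 78 to 85) entered because a gene with 0 counts in both libraries of a baboon has a log2 ratio of exactly 0. These 8 genes had 194 to 430 counts each in the HCHF library of baboon 6 (67.5 to 149.6 CPM, 2259 counts in all) and 13 counts in all over the other 11 libraries, with at most 2 in any library and 1 over the 6 chow libraries. They lie on chromosomes 4, 6, 14, 17 and 20, and 2 of the 3 on chromosome 14 are neighbours 7827 bases apart (chr14:10713841-10737233 and chr14:10745060-10753187). They describe 1 library and not a response shared by the animals. The HCHF library of baboon 6 is also the one with the lowest share of counts in the 2 most abundant genes (16.3%) and, with 11212, the second highest number of genes with at least 10 counts. The part of that difference in these 8 genes was not tested.

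The 100 genes were set apart by their physical size. The median span from start to end was 6124.5 bases against 23810 bases for all 9391 genes, and 62 of the 100 against 26.8% of all genes spanned under 10000 bases. Among the 77 genes higher in every baboon the median was 6103 bases and 63.6% were under 10000 bases. Under 1000 bases were 10 of the 100 genes and 4.6% of all. The 100 genes that were lowest by the mirrored rule (the lowest maximum over the 6 ratios) had a median span of 33243 bases, with 13 under 10000. Choosing without 1 of the baboons gave 44 to 66 genes under 10000 bases, and centring each ratio on the median of all genes in that baboon gave 49. Across all genes, which are not independent replicates, the rank correlation (Spearman) of span with the diet ratio changed sign between baboons, at -0.18, 0.11, -0.19, 0.03, -0.35 and 0.13 in baboons 1 to 6.

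More than 1 transcript was listed for 7 of the 100 genes and for 12.1% of all genes. The genes lay on 21 chromosomes. Chromosome 14 held 13 of the 100 genes (6.0% of all 9391 genes lie there), chromosome 7 held 11 (6.34%), chromosome 1 held 9 (10.3%), chromosome 2 held 9 (5.36%), chromosome 19 held 5 (7.41%), chromosome 18 held 4 (1.33%) and chromosome 11 held 3 (5.85%), and the others held 1 to 6. In 8 cases 2 of the genes lay within 500000 bases of each other. In 6 of the 8 cases other measured genes lay between them, each of them higher on the HCHF diet in 1 to 4 of the 6 baboons. Ranks 18 and 6 on chromosome 16 (chr16:45368992-45380631 and chr16:45472194-45478296) lie 91563 bases apart, and the 2 measured genes between them rose in 1 and 2 of the 6 baboons. Another gene in the annotation overlapped 16 of the 100, and in 8 of these the overlapping gene held over 10% of their joint counts. The counting is not stated to use strand, so reads of such pairs may be divided wrongly. Ranks 14 and 44 on chromosome 11 overlap each other (chr11:49033998-49043293 and chr11:49031759-49036112), with mean log2 ratios of 0.37 and 0.33, and cannot be counted as separate responses.

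Each baboon was also compared with the others. The median ratio of the 100 genes was 0.26, 0.56, 0.35, 0.16, 0.44 and 0.32 in baboons 1 to 6, while the median of all 9391 genes was -0.55, 0.66, -0.60, -0.065, -0.28 and 0.047. In baboon 2, whose chow library had the fewest counts outside the 2 most abundant genes, most genes were thus higher on the HCHF diet (78.8%) and only 40 of the 100 lay above the median of all genes. In baboons 1 and 3 only 23.6% and 22.2% of all genes were higher, and in baboons 4, 5 and 6 it was 43.7%, 37% and 54.0%. Each of the 100 lay above the median of all genes in baboons 1, 3, 4 and 5, and 88 did in baboon 6, which the choice fixes wherever that median is below the lowest ratio taken. Among the 92 genes without a pair at 0 counts, the lowest ratio came from baboon 4 in 28 genes, from baboons 6, 1 and 3 in 19, 18 and 13, and from baboons 5 and 2 in 9 and 5.

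Since 6 animals allow 64 patterns of higher and lower, the number of genes that were higher in all 6 was set beside the number that followed each other pattern. This is a tally and not a test, because genes are not independent and the libraries differ as wholes. The patterns were followed by 10 to 1097 genes (median 69.5), the all-higher pattern by 77 (place 28 of 64) and the all-lower pattern by 209 (2.23%, place 10). The most common pattern, lower in baboons 1, 3 and 5 and higher in baboons 2, 4 and 6, held 1097 genes. The value that the gene of rank 100 reached when the signs of the pairs were flipped ran from -0.203 to 0.392 over the 64 patterns with a median of -0.0343, and it was -0.0304 for the true signs. The single highest value was 0.64 for the true signs (rank 1, place 18) and ran from 0.18 to 1.09 with a median of 0.52. With each ratio centred on the median of its baboon the all-higher pattern held 176 genes (place 18), against 26 to 421 over the patterns (median 122). Being higher in all 6 animals was therefore about as frequent as a typical pattern of signs before centring, and somewhat more frequent after it.

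**Figure D3:**
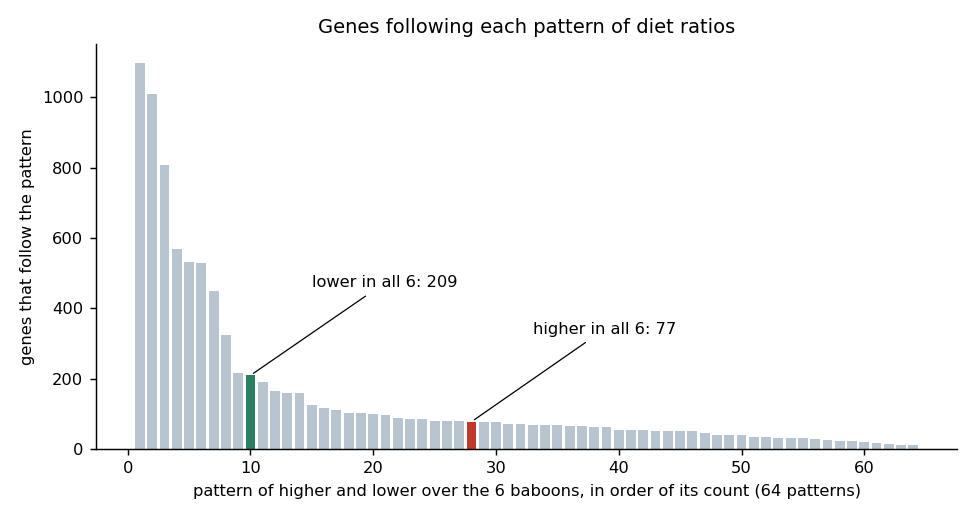
Number of genes, of 9391, that followed each of the 64 patterns of higher and lower ratios over the 6 baboons, in order of the number. The pattern higher in all 6 (red, 77 genes) stands near the middle of the order and the pattern lower in all 6 (green, 209 genes) stands further to the left, while the most common pattern holds 1097 genes.

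To read the same measure in an animal that the choice had not used, 100 genes were chosen on 5 baboons and read in the left-out one. They were higher on the HCHF diet in 50, 69, 63, 46, 49 and 58 of 100 genes when baboons 1 to 6 were left out, against 23.6, 78.8, 22.2, 43.7, 37 and 54.0% of all genes. Their median ratio in the left-out baboon was -0.0097, 0.36, 0.12, -0.079, -0.11 and 0.077. The chosen genes were thus well above all genes in baboons 1 and 3, where most genes were lower, somewhat above them in baboon 5, near them in baboons 4 and 6, and below them in baboon 2. The 5-baboon choices shared 48 to 71 genes with the 100.

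The choice also depended on the library total that the levels were divided by. On the full total, with the 2 most abundant genes left in, 17 of the 100 genes were higher in all 6 baboons. With TMM factors, which assume that most genes do not change, it was 37, with each ratio centred on the median of all genes 39, and with the mitochondrial genes also taken out of the total 92. Over these scalings and the one used for the choice, 5 of the 100 genes were higher in all 6 baboons under every scaling. Over all genes the count is 5 by construction, since the choice already held every gene higher in all 6 on its own scale. The 5 genes were rank 1 (ENSPANG00000005008), rank 5, rank 12 (chr15:102384034-102393529), rank 17 and rank 62 (chr1:68298435-68425552). Their lowest ratio over the 6 baboons stayed at or above 0.23, 0.049, 0.17, 0.055 and 0.014. The gene of rank 12 was near the counting limit, at 1.1 to 14.2 CPM on chow and 6.0 to 16.2 CPM on the HCHF diet, and rank 62 spans the longest stretch of the 5.

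**Figure D4:**
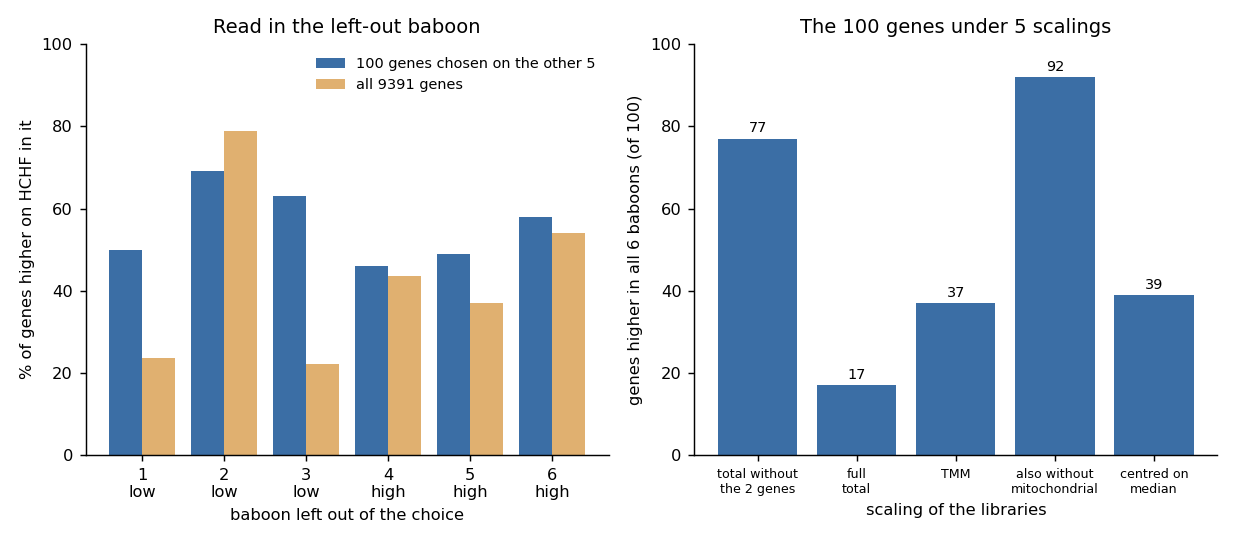
Left, percent of genes higher on the HCHF diet in a baboon that was left out of the choice, for the 100 genes chosen on the other 5 (blue) and for all 9391 genes (tan). The blue bars run from 46 to 69% and the tan bars from 22.2 to 78.8%. Right, how many of the 100 genes were higher in all 6 baboons under each of 5 scalings of the libraries, from 17 on the full total to 92 when mitochondrial counts were also left out.

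The share of mitochondrial transcripts was higher on the HCHF diet in the same animals. The mitochondrial chromosome encodes core subunits of the respiratory chain and the ATP synthase together with its own ribosomal and transfer RNAs. Its genes took 26.1% ± 7.76 (SD, n = 6) of the counts outside the 2 most abundant genes on chow and 35.6% ± 5.50 on the HCHF diet. The share was higher in 6 of 6 baboons, by 9.48 percentage points on average and by a median of 4.92. The exact paired permutation test (two-sided) gave p = 0.03125, the smallest that 6 pairs allow, and 0.156 after Benjamini-Hochberg adjustment over 5 library measures. The share of the 2 most abundant genes (54.9% on chow, 46.6% on HCHF), the total count, the count outside the 2 genes and the number of genes with at least 10 counts gave adjusted p-values of 0.625 to 0.781 in the same exact test. Other things equal, a larger mitochondrial share lowers the CPM of every nuclear gene on this total. With mitochondrial counts left out of it, 92 of the 100 genes were higher in all 6 baboons, and 204 of all genes instead of 77 were so.

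**Figure D5:**
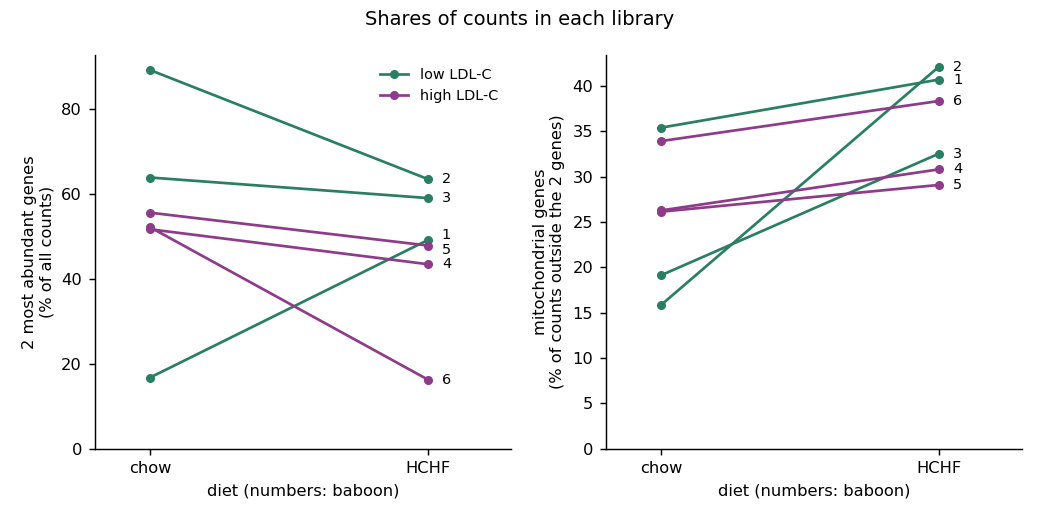
Percent of all counts on the 2 most abundant genes (left) and percent of the remaining counts on mitochondrial genes (right) in each library, with a line per baboon. The left share goes up in baboon 1 and down in the others, and the right share goes up in all 6, from a mean of 26.1 to 35.6%.

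In edgeR's quasi-likelihood test of the diet over all 6 baboons, which was fitted to 11579 genes with a term for each baboon, 0 genes were called at an unadjusted p under 0.05 and an adjusted p under 0.20 (0.0%, lowest adjusted p = 0.503). Before adjustment, 260 genes (2.25%) had p under 0.05 in the direction of a rise and 356 (3.07%) in that of a fall. DESeq2 called 45 genes. Of the 100 genes edgeR called 0, DESeq2 called 7, and 62 were higher at an unadjusted p under 0.05 in edgeR. The choice used this contrast, so that these counts are given and nothing is read from them. ENSPANG00000005008 had a log2 fold change of 1.41 ± 0.33 (SE, edgeR adjusted p = 0.529) and ENSPANG00000019527 of 1.25 ± 0.29 (edgeR adjusted p = 0.529).

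The response was also set out by phenotype. The same 6 ratios that chose the genes enter this comparison, and a choice on the lowest of them leaves out genes that fell in either phenotype, so that the values of the 100 are a description and nothing is read from their counts. The median over the 100 genes was 0.40 for the mean ratio of the low and 0.36 for that of the high LDL-C animals, against -0.18 and -0.11 for all genes, and 56 of the 100 rose more in the low LDL-C animals. The interaction of diet and phenotype was called for 26 of 11579 genes by edgeR (0.225%) and for 0 of the 100. Before adjustment 4.85% of all genes and 0 of the 100 had p under 0.05. DESeq2 called 5 genes and 0 of the 100. The interaction term (high minus low LDL-C) was above 0 in 30 of the 100 and in 51.9% of all genes, with medians of -0.18 and 0.029 on the log2 scale. The median of the 100 turned to 0.05 without baboon 3.

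Levels on chow were compared between high and low LDL-C baboons. The choice did not rank genes by this contrast, but chow levels are the denominators and HCHF levels the numerators of its ratios. The counts among the 100 are therefore a description, here and on the HCHF diet. Of the 100 genes 93 had at least 1 count on chow and were fitted. In edgeR 0 of 11552 genes were called (0.0%, lowest adjusted p = 0.797), and DESeq2 called 41, of which 1 was among the 100. At an unadjusted p under 0.05, 10 of the 93 genes were lower in high LDL-C baboons and 0 were higher, against 5.0% and 0.935% of all genes in edgeR. Without baboon 1, whose chow library stood apart, edgeR called 26 genes and 4 of the 93. The fitted difference was above 0 in 24 of the 93 and below 0 in 69, while 47.7% of all genes were above 0, and without baboon 2 it was above 0 in 34. All high LDL-C libraries lay below all low LDL-C libraries in 3 of the 100 (0.894% of all genes) and above them in 3 (7.66%).

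The gene of rank 17 had the lowest p of the 10. It stood at 159.5, 601.0 and 466.7 CPM in the low and at 105.8, 130.4 and 46.6 CPM in the high LDL-C baboons on chow, groups that did not overlap, with a log2 difference of -2.79 ± 0.75 (SE, edgeR adjusted p = 0.797). Its neighbour ENSPANG00000019527 (rank 2) stood at 29.2, 38.2 and 53.2 CPM in low and at 14.9, 14.5 and 26.3 CPM in high LDL-C baboons, with -1.51 ± 0.45 (edgeR adjusted p = 0.797). The groups did not overlap here either. Rank 62 had 30.5, 72.1 and 110.9 CPM in low and 36.9, 17.4 and 18.2 CPM in high LDL-C baboons, with an overlap of 1 animal and a difference of -2.00 ± 0.59 (edgeR adjusted p = 0.797). ENSPANG00000005008 (rank 1) and rank 5 also had a lower fitted level in the high LDL-C group, by -1.35 ± 0.51 and -1.60 ± 0.60 (edgeR adjusted p = 0.814 for both), with overlapping groups. None of these 5 differences passed the adjustment over all genes in edgeR with all 6 baboons.

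The same contrast was made on the HCHF diet. In edgeR 0 of 11576 genes were called (0.0%, lowest adjusted p = 0.827), while before adjustment 467 genes (4.03%) with p under 0.05 had the higher level in high LDL-C animals and 220 (1.9%) the lower. DESeq2 called 42 genes, 1 of the 100 among them. Among the 100, 8 genes were higher and 4 lower at that level. The number lower at that level moved with single animals, to 4 on chow and 8 on the HCHF diet without baboon 2 and to 5 and 10 without baboon 5, and a difference between the diets was not tested. The 8 were those counted almost only in the HCHF library of baboon 6, and without baboon 6 it was 0. They met the CPM minimum only through that library, so nothing about the phenotype is read from them. The 4 lower genes were ranks 62, 5, 67 (chr7:54407762-54419161) and 2, all of which were also lower on chow at that level. Rank 62 stood at 64.4, 133.1 and 127.8 CPM in low and at 37.3, 28.3 and 23.3 CPM in high LDL-C baboons, the only gene of the 100 in which all high lay below all low LDL-C libraries on the HCHF diet (1.1% of all genes), with a log2 difference of -2.24 ± 0.44 (edgeR unadjusted p = 0.000386, adjusted p = 0.827). In 2 of the 100 all high lay above all low LDL-C libraries, as in 18.0% of all genes. The chow and HCHF libraries come from the same animals, so a lower level on both diets is not a repeated observation of the phenotype.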

How the data were processed

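Buffy coat RNA of 6 baboons on 2 diets was sequenced as paired-end libraries after poly-A selection. Base calling and FASTQ conversion used CASAVA 1.8, per the labels. The authors aligned quality-trimmed reads to the Ensembl PapAnu2 transcriptome (STAR 2.3.1j) and estimated transcript abundance in Partek. The deposited table holds expected counts for 29300 transcripts, scaled for neither length nor depth. They were summed per gene. Reads, RNA quality and pool or lane were not used here.

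The 100 genes and all lists were chosen with earlier results of these data known. The rule for named genes allowed the 25 with the highest lowest ratio, those at the edge of the choice and the 2 with the highest mean CPM. It also allowed members called in comparisons by which the choice did not rank genes, of which there were 0. Only some of the 25 are described singly. Ranks 44, 62 and 67, the genes at 0 counts in a pair and other neighbours were named after their values were seen. The files pair no ID with a symbol, so the lists of erythroid, platelet, granulocyte, monocyte, T and NK, B and plasma, hepatocyte, cholesterol, fatty acid oxidation, mitochondrial, ribosomal, proteasome, spliceosome, interferon, inflammation, stress, ubiquitin and cell cycle genes and the promoter motifs were not analysed here.

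Counts rounded to whole numbers were fitted with the quasi-likelihood functions of edgeR 4.0.16 (two-sided tests, TMM factors) for genes with a mean of at least 1 CPM. In this filter and in its alternative of 5 CPM, CPM was taken on the full library total, with the 2 most abundant genes left in. The diet and its interaction with phenotype were fitted on 12 libraries with a term for each baboon, and the phenotypes on the 6 libraries of each diet. Called genes had p under 0.05 together with a Benjamini-Hochberg value under 0.20. The SE printed with an edgeR log2 difference was back-calculated from that difference and its test statistic, and was not estimated by the fit. CPM ratios have exact binomial 95% intervals, computed from the 2 counts and scaled by the library totals. Other tools were R 4.3.3, limma 3.58.1, DESeq2 1.42.0, python 3.11.15, numpy 2.4.6, pandas 2.3.3, scipy 1.17.1 and matplotlib 3.10.9. The fits were tested on simulated data. Alternatives were DESeq2, other filters, pseudocounts and scalings, single transcripts, no term for the baboon and leaving out baboons. Those that centred the ratios, took mitochondrial genes out of the total or left out 2 or 3 baboons were chosen after seeing the data.

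The pairing of libraries comes from the animal labels. Between the 2 libraries of a baboon, the deviations from their group means had correlations across genes of 0.173, 0.0813, 0.223, 0.379, 0.248 and 0.143 in baboons 1 to 6.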

Additional observations from a re-analysis of the deposited data

Results flagged for a closer look

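The mitochondrial share of the counts outside the 2 most abundant genes was not itself used to rank the 100 nuclear genes. Mitochondrial counts are, however, part of the total that the nuclear levels were divided by. The share was higher on the HCHF diet in 6 of 6 baboons, by 9.48 percentage points on average (SD 9.03, range 2.95 to 26.3). The largest difference was in baboon 2 (15.9 to 42.2%), whose chow library had the fewest counts outside those 2 genes. The exact permutation test (two-sided) gave p = 0.03125 and 0.156 after adjustment over 5 measures. With mitochondrial counts left out of the total, 92 of the 100 genes in place of 77 were higher in all 6 baboons.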

How the results depend on the processing

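Which genes were chosen depended on the scaling and on the animals. The choice returned 12 of the 100 genes on the full library total, 27 with TMM, 31 with each pair centred on the median, 31 without baboons 1 and 6, 23 without baboons 1, 2 and 6, and 48 to 71 without a single baboon. Under these settings 130, 160, 176, 249 and 353 genes were higher in all baboons (110 to 174 without a single baboon), and 219 without mitochondrial counts. The CPM minimum was applied anew on the full total, with TMM and without mitochondrial counts, and the other settings kept the same 9391 genes. Lower in all baboons were 8 genes on the full total, 72 without mitochondrial counts, 611 without baboons 1 and 6, 2639 without baboons 1, 2 and 6, and 227 to 1017 without a single baboon. Where baboons were left out, a gene had to agree only in those kept. Such counts cannot be lower than with all 6 baboons, so their increase is fixed in advance. Of the 100 genes, 17, 37 and 39 were higher in all 6 baboons on the full total, with TMM and when centred.

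DESeq2 called 45 genes (7 of the 100) for the diet, 5 for the interaction, 41 (1) on chow and 42 (1) on the HCHF diet. With no filter edgeR called 55 (12), 312, 0 and 380 (10). For the interaction a minimum of 5 CPM gave 3 genes. Leaving out single baboons gave 0 to 50 genes (0 to 8 of the 100) for the diet, 0 to 75 for the interaction and 0 to 26 (0 to 4) on chow. The highest of these came without baboon 1 for the diet and chow and without baboon 3 for the interaction. Without baboons 1 and 6 it was 0 genes for the interaction, 9 on chow and 7 on the HCHF diet.

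The paired fits have a replicate block for the baboon. Without the block edgeR called 0 genes for the diet, as with it, and 0 for the interaction, where the block gave 26, and it called 0 of the 100 either way. Of 81 alternatives that kept all baboons or left out more than 1, 46 gave a count within 1.5 times the reported one, as did 43 of 66 that left out 1. A count of 0 beside a reported 0 was taken as within this limit, and many of the matches are of this kind. The tallies therefore do not measure how stable the results are. The cause of the counts outside the limit was not tested. Counting error leaves 41 of the 100 with an interval above 1 in at most 1 baboon, and the part of depth and of the size of the rise in this was not separated.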

Other observations

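Of 38 genes on the mitochondrial chromosome 25 had a mean of at least 5 CPM, and 6 of these rose in each of the 6 animals on the scale used for the nuclear genes. Their mean log2 ratio had a median of 0.35 and their lowest ratio a median of -0.34, with a highest value of 0.30. The rise in the mitochondrial share was therefore not shared by each of its genes in each animal.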
